A study of Mus musculus with 102 samples.

Results

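Peg3 is an imprinted gene on mouse chromosome 7 that encodes a zinc finger protein and is expressed from the paternal copy. The locus was taken here as all CpGs that the capture table holds in the mm9 window chr7:6655000-6690000, which covers Peg3 (chr7:6656603-6683132, minus strand, GENCODE M1) and the region upstream of its 5′ end. This gave 137 of 2177608 captured CpGs. The locus was chosen by its slow loss of methylation in TTKO cells, since the CpG at position 6683767 had stood out for a low demethylation rate. The time course in TTKO cells is therefore given as a description, and nothing is read from calls made on it. Positions are those of the cytosine on the plus strand of mm9, counted from 1.

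The cells were mouse embryonic stem cells of strain C57BL6/J from a line with floxed alleles of Dnmt3a and Dnmt3b, the de novo DNA methyltransferases. TTKO cells are a single clone of this line with mutations in all alleles of Tet1, Tet2 and Tet3, whose enzymes oxidise 5-methylcytosine, and wild-type (WT) cells are the parental line with intact TET and Dnmt3a/3b genes. TTKO cells were collected untransduced (day 0) and then 4, 8, 10, 13, 17 or 29 days after transduction with Cre protein, which removes Dnmt3a and Dnmt3b, and WT cells were collected without transduction at day 0. Cells grew on feeders before transduction and without feeders from soon after, so day 0 and the later days differed in culture as well as in Dnmt3. Excision was not complete in every cell, and Dnmt1, the maintenance methyltransferase, was present throughout. The DNA was enriched with capture probes and sequenced following bisulfite conversion, after which methylated cytosines are read as cytosine. 5-hydroxymethylcytosine, which TET enzymes make, is read as cytosine too, so levels in WT cells hold both. Each of the 8 columns joined the reads of 3 replicates, and no value per replicate was used, so differences could not be set against the spread between replicates. Intervals below are 95% intervals from read counts (Wilson for levels), and they cover counting error only, since PCR copies of a molecule were not told apart. The members had 50 to 2991 reads per column, with a median of 335.5 reads, against 231 reads over all captured CpGs.

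Genomic imprinting marks the parental copies of a gene differently. At Peg3, the CpG island around the promoter and first exon receives methylation in the oocyte and keeps it on the maternal copy after fertilisation, while the paternal copy is unmethylated and active. The zinc finger protein ZFP57 binds the methylated hexamer TGCCGC and recruits TRIM28 to imprinted regions, where methylation is maintained. YY1, a zinc finger protein that binds the core CGCCAT and whose binding is blocked by methylation of that CpG, has a series of binding motifs in the first intron of Peg3. Bisulfite reads of both copies are mixed in these libraries, so a level between 0 and 100% does not tell how the copies differ.

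No CpG of the gene body beyond intron 1 was captured, and the members fell into 3 clusters, split where neighbours lay more than 500 bases apart. The promoter cluster (chr7:6679787-6684008) held 122 CpGs, of which 77 lay in intron 1, 15 in exon 1 and 30 upstream of the 5′ end. It covered 83.0% of the 147 CpGs that mm9 has in this span of 4222 bases, and 0.721% of 33547 tiles of the same length on chromosome 7 held as many CpGs. The upstream cluster (chr7:6684620-6685666) held 12 CpGs and the distal cluster (chr7:6688309-6688452) 3, all in sequence without a gene in GENCODE M1. In RefSeq (assembly GRCm38.p6) the neighbour on this side is Usp29, which starts close to Peg3 and runs the other way. None of the 88 amplicons of the study lay in the window.

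Both motifs were searched on both strands of the promoter cluster. CGCCATNTT matched 10 times, and 2 of the 33547 tiles (0.006%) held as many matches, while 5.78% held any. The tiles include the locus itself and were not matched for CpG density. All 10 matches lay in intron 1 on the minus strand, the strand of the Peg3 transcript, and read as AANATGGCG on the plus strand. TGCCGC matched 8 times, and 0.0209% of the tiles held as many, while 22.1% held any. Captured CpGs were found in 9 of the CGCCATNTT matches and in 6 of the TGCCGC matches. Another string, CCGCCC, the core of the GC box that SP1 and KLF proteins bind, was added after the values were seen, and matched 10 times (0.28% of tiles held as many, and 30.5% any) with 5 captured CpGs, 1 of which also lay in TGCCGC. The CpGs in CGCCATNTT are shown first, since they lost methylation to differing degrees, as 26 bases of the plus strand of mm9 with the motif in capitals.
Intron 1, CpG at 6680019: caacaAAGATGGCGccaatgaaggtg
Intron 1, CpG at 6680141: caacaAAGATGGCGccagagggagga
Intron 1, CpG at 6680563: aagtaAAGATGGCGcccaggtgggca
Intron 1, CpG at 6680682: cagcaAAGATGGCGtcaggtgggcag
Intron 1, CpG at 6681120: cattcAAGATGGCGtctgcaccataa
Intron 1, CpG at 6681169: tggcaAAGATGGCGccaaattgggcg
Intron 1, CpG at 6681457: cagcaAAGATGGCGtcagggtaggtg
Intron 1, CpG at 6682201: atttcAAGATGGCGccaagcgggctg
Intron 1, CpG at 6682307: cctccAAGATGGCGccaactgggtgg

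The CpGs in TGCCGC are shown in the same way, as the set to hold against the first. On the plus strand the hexamer reads TGCCGC or, where it lies on the minus strand, GCGGCA. The capitals at 6682866 also cover the overlapping CCGCCC.
Intron 1, CpG at 6681237: cccgcctctTGCCGCaaacacatcca
Intron 1, CpG at 6681998: gcagcattcgtGCGGCAaactaagac
Intron 1, CpG at 6682173: gcggcgcctgcGCGGCAaatccgcgg
Intron 1, CpG at 6682774: atggcatccctGCGGCAacacggccg
Intron 1, CpG at 6682866: gatatggtcTGCCGCCCctggcccgc
Intron 1, CpG at 6682879: gcccctggcccGCGGCAacgcacccc

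At day 0 the promoter cluster was methylated to an intermediate level in TTKO cells. The level of its pooled reads was 46.2%, and single CpGs ranged from 20.5 to 59.9% with a median of 45.6%. The SD over CpGs was 6.62 percentage points, against 2.94 points from counting alone. Exon 1 had a median of 41.5% (33.9 to 47.8%), intron 1 a median of 45.7% (30.0 to 58.4%) and the part upstream of the 5′ end a median of 49.9% (20.5 to 59.9%). The CpG nearest to the 5′ end, at 6683126 in exon 1, was at 33.9% (interval 28.9 to 39.2, 322 reads). The lowest CpG was that at 6683398, 266 bases upstream of the 5′ end, with 20.5% (14.5 to 28.1, 132 reads), and the highest that at 6683959 with 59.9% (53.8 to 65.7, 257 reads).

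**Figure D1:**
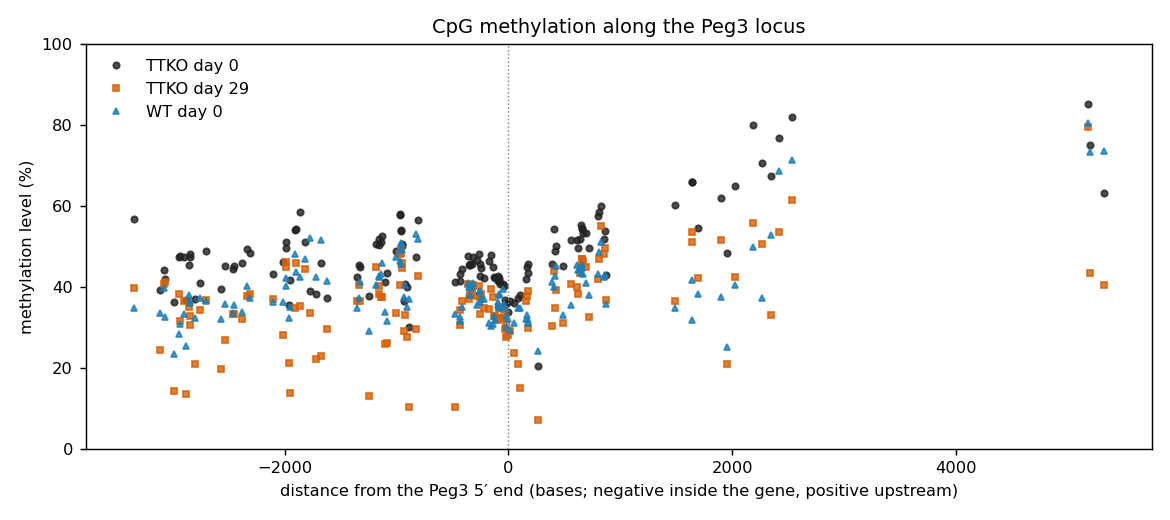
Methylation level (%) of the 137 captured CpGs against their distance from the Peg3 5′ end in bases, in TTKO cells at day 0 (circles) and day 29 (squares) and in WT cells (triangles), each point a CpG in pooled reads. Day 0 levels of the 122 CpGs of the promoter cluster lay between 20.5 and 59.9%, and the upstream cluster to the right reached 82.0%.

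After Cre, the promoter cluster kept most of its methylation. Its pooled level was 46.7, 47.8, 44.5, 42.5, 40.01 and 35.3% at the 6 time points after transduction. It stayed near the day 0 level until day 8 and fell thereafter. Over all 188373 captured CpGs with 40 to 60% methylation at day 0, the pooled level was 50.8% before transduction, 39.9% by day 8 and 15.7% by day 29. The share of the day 0 level that a CpG retained at day 29 had a median of 79.4% in the promoter cluster (24.9 to 98.1%), 29.3% over the CpGs with 40 to 60% at day 0 and 46.8% over all captured CpGs with at least 10% at day 0. In the promoter cluster 55 CpGs (45.1%) retained 80% or more and 9 (7.38%) under 50%, where the figures for CpGs with 40 to 60% at day 0 were 0.65% and 90.6%. These values are those on which the locus was selected. All 137 members were lower at day 29 than at day 0. The count of members that Fisher's exact test called lower, 93, is given only beside the 59.3% of all captured CpGs called lower and the 0.171% called higher, since this contrast chose the locus and the count is no evidence about it. The same holds with variance inflated for an over-dispersion of 0.0055, the value that the study's methods give for its amplicon data and not for the capture data, where 40 members were lower beside 53.0% of all captured CpGs and 0 higher beside 0.00175%.

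**Figure D2:**
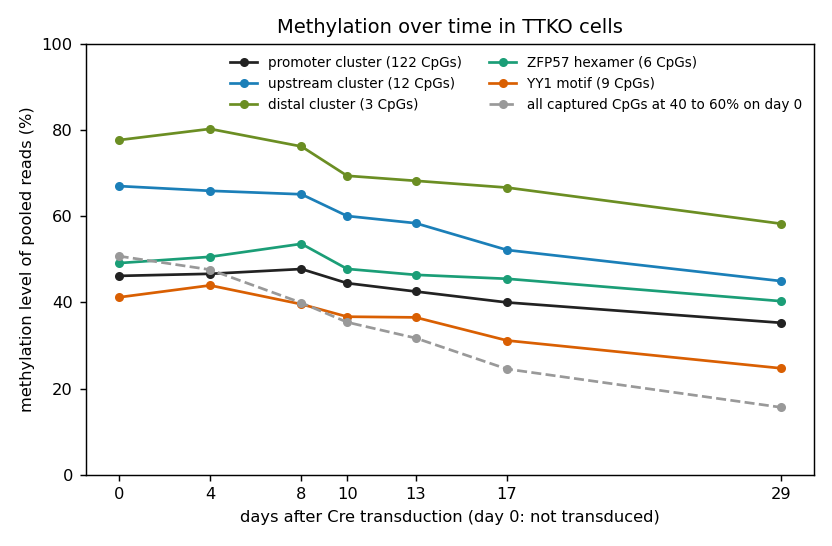
Methylation level of pooled reads (%) in TTKO cells against the day after Cre transduction, for the clusters of the Peg3 locus, for promoter cluster CpGs in TGCCGC (ZFP57 hexamer) and in CGCCATNTT (YY1 motif), and for all captured CpGs with 40 to 60% at day 0 (dashed). The promoter cluster went from 46.2% to 35.3%, and the dashed line from 50.8% to 15.7%.

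Rates were inferred by fitting the time course of each CpG with a methylation rate k_me until Dnmt3 is lost and a demethylation rate k_de per day. In the promoter cluster 36 CpGs were low noise, which means that the credible ranges of both rates spanned under 2 on the log2 scale and the fit lay away from the edge of the grid. Their median log2 k_de was -5.94, with a range from -7.11 to -4.36, and the median over the 172104 low noise CpGs with 40 to 60% at day 0 was -4.09. The filter left out all 15 CpGs of exon 1, and slower and faster fits elsewhere, such as -9.04 at 6680067 and -3.95 at 6682239. The median therefore describes the low noise CpGs and not the cluster. Over all 48 low noise CpGs of the window the median was -6.01. With a beta-binomial likelihood only 9 were low noise, with a median of -5.19, so the set of CpGs changed along with the fit. The slowest low noise CpG of the promoter cluster, at 6683767, had levels of 51.8, 55.5, 59.6, 52.1, 52.0, 48.7 and 43.5% from the first to the last time point, and 44.4% in WT. Its level was highest at day 8 and was not below the day 0 value before day 17. The fastest, at 6681181 in intron 1, had 41.7, 36.7, 32.7, 30.4, 29.7, 22.3 and 13.9% and 35.1% in WT, and so fell at every step.

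In exon 1, which is untranslated, the 15 CpGs retained between 74.5 and 85.8% (median 80.4%), and none fell under 50%. Exon 1 is about as long as a capture fragment of 150 to 200 bases, while intron 1 spans many fragments. The exon 1 CpGs may thus in part have been read on the same molecules, which was not measured. The part of this in their spread was not tested. In intron 1 the 77 CpGs retained 24.9 to 98.1% (median 77.4%), with 7 under 50%, and the 30 CpGs upstream of the 5′ end retained 34.6 to 92.7% (median 79.8%), with 2 under 50%. The SD of the levels over the exon 1 CpGs was 3.70 points at day 0 and 3.19 points at day 29, against 2.47 and 2.44 points from counting. Over intron 1 it rose from 5.79 to 9.09 points, against 3.04 and 2.87 points from counting, so that its CpGs were farther apart at the end of the time course than at the start. The CpG at 6683126 in exon 1, nearest to the 5′ end, had 33.9, 31.7, 32.8, 35.3, 34.7, 30.8 and 28.1% over the 7 time points, or 82.9% retained (66.2 to 104). The highest CpG of the cluster, at 6683959, had 59.9, 58.4, 64.4, 55.7, 51.9, 51.8 and 55.1%, or 92.0% retained (78.3 to 108).

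CpGs of the same intron differed widely in what they kept. The largest retained share was that of the CpG at 6680067, with 41.9, 46.6, 50.2, 45.4, 45.2, 45.0 and 41.1% over the 7 time points, or 98.1% retained (interval 84.5 to 114). At 6680141, 74 bases away, the level went through 36.2, 33.7, 23.5, 30.3, 30.4, 18.8 and 14.2%, or 39.2% retained (29.2 to 53.1). The intervals of the retained shares, which cover counting error only, did not overlap. This pair was picked for its values, on the readout that chose the locus, so this is a description and no test. The smallest retained share was 24.9% (12.9 to 48.4), at 6682653, where 104 reads gave 41.3% at day 0 and 87 reads gave 10.3% at day 29. CpGs as close as 74 bases may in part have been read on the same molecules, which was not measured.

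CpGs in the YY1 motif had lower medians than the promoter cluster as a whole, both at day 0 and in what they retained, although single CpGs of the set lay above the medians of the cluster. At day 0 the 9 CpGs in CGCCATNTT were at 35.6 to 47.5% (median 39.4%) and at day 29 at 14.2 to 33.2% (median 24.5%). They retained between 39.2 and 79.7%, with a median of 61.0%, and none retained 80%. The 6 CpGs in TGCCGC were at 45.6 to 54.4% (median 50.3%) at day 0 and at 37.4 to 49.4% (median 40.4%) at day 29. They retained between 71.2 and 91.3%, with a median of 83.9%, and 5 of 6 retained 80% or more. The ranges of both sets overlapped, through the CpG in TGCCGC at 6681998 with 71.2% (interval 61.5 to 82.8) and the CpGs in CGCCATNTT at 6680682 with 73.5% (64.5 to 83.7) and at 6682201 with 79.7% (57.0 to 111). The 103 CpGs in none of the 3 strings retained a median of 79.9% (24.9 to 98.1%). The CpGs of a cluster are not replicates of each other, and no test was made between these sets.

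In time, the pooled level of the CpGs in CGCCATNTT was 41.2% before transduction and 44.0, 39.6, 36.7, 36.5, 31.2 and 24.7% at the later time points. That of the CpGs in TGCCGC was 49.1, 50.6, 53.6, 47.8, 46.4, 45.5 and 40.3% over the same time points. The pooled level of the hexamer CpGs was above that of the YY1 motif CpGs at each of the 7 time points. These are repeated readings of the same CpGs, and single CpGs of the sets overlapped. At day 0 the YY1 motif CpG at 6682307 had 47.5% and the hexamer CpG at 6682879 45.6%. Among the 9 CpGs in CGCCATNTT, the smallest retained shares were 39.2% at 6680141, 49.8% (32.3 to 76.9) at 6681457, which had 96 reads at day 0 and 92 at day 29, and 50% (42.0 to 59.5) at 6680563, which had 776 and 690 reads. Those at 6680019, 6681120, 6681169 and 6682307 retained 62.5% (52.3 to 75.0), 61.0% (49.0 to 76.1), 59.6% (42.6 to 83.1) and 62.3% (43.5 to 89.0). The largest shares were the 73.5% at 6680682 and the 79.7% at 6682201 given above.

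The CpGs in CCGCCC, the string added after the values were seen, retained 33.3 to 83.4% with a median of 57.9%. The upper end of this range is the CpG at 6682866, which also lay in TGCCGC. At 6682239 the level was 30.0% at day 0 (110 reads) and 10.2% at day 29 (108 reads), or 34.0% retained (18.1 to 63.7), and 6681181, the fastest low noise CpG, retained 33.3% (22.1 to 50.7). The CpGs at 6680603 and 6681415 retained 59.3% (51.2 to 68.6) and 57.9% (40.4 to 82.7). Beside these and the YY1 motif CpG at 6680141, the CpGs that retained under 40% were in none of the 3 strings, namely those at 6680253 with 36.7% (28.4 to 47.1), at 6681882 with 34.7% (26.3 to 45.6), at 6683234 with 39.4% (27.8 to 55.5) and at 6683398 with 34.6% (15.1 to 81.0), beside 6682653. These 5 were picked for their values.

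**Figure D3:**
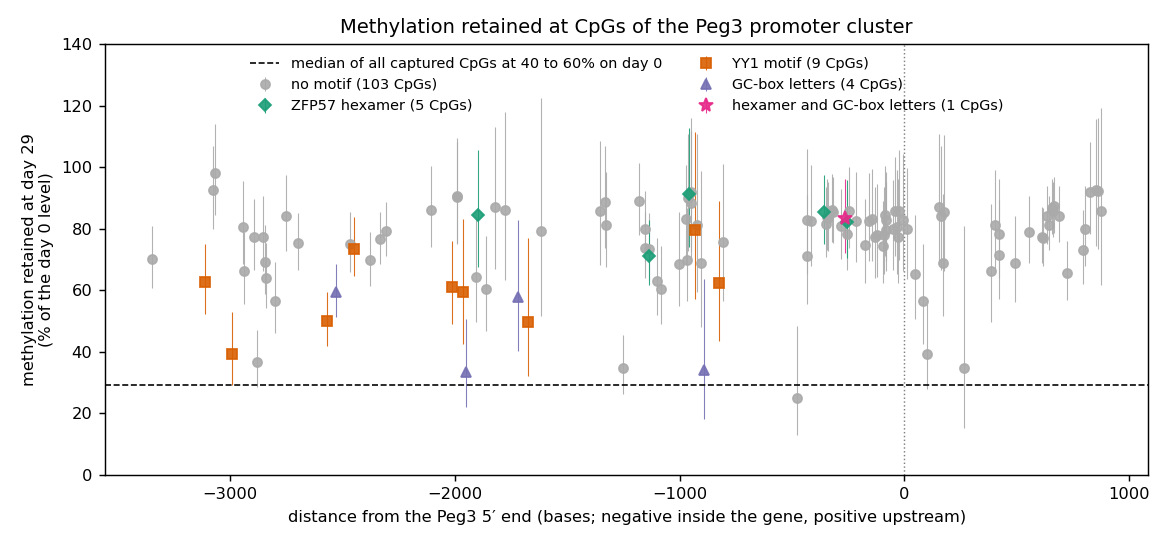
Methylation retained at day 29 as a percentage of the day 0 level for the 122 CpGs of the promoter cluster, against their distance from the Peg3 5′ end in bases, with 95% intervals from read counts and with CpGs in TGCCGC (ZFP57 hexamer), CGCCATNTT (YY1 motif) and CCGCCC (GC-box letters) marked. CpGs in CGCCATNTT lay between 39.2 and 79.7% and those in TGCCGC between 71.2 and 91.3%, and the dashed line marks the median of 29.3% over all captured CpGs with 40 to 60% at day 0.

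A pair of stretches in intron 1 held all 3 strings side by side, and they are printed so that all values within a short distance can be compared. Both were picked after the values were seen, and the matches are in capitals.
Intron 1, chr7:6681108-6681244: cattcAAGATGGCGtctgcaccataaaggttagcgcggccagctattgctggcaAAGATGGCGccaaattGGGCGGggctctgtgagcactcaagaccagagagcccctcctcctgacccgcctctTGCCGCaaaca
Intron 1, chr7:6682167-6682248: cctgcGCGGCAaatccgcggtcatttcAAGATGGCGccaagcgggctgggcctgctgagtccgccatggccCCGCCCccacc
In the first stretch the CpG of the first YY1 motif, at 6681120, retained 61.0%. The next CpGs, at 6681141 and 6681143, lay in no match and retained 90.2% (75.5 to 108) and 90.7% (75.1 to 110), and those of the second YY1 motif at 6681169 and of the CCGCCC match at 6681181 retained 59.6% and 33.3%. The CpG at 6681227, also in no match, retained 64.3% (49.5 to 83.1). The hexamer at the end of the stretch, at 6681237, retained 84.4% (67.6 to 106). The intervals of the CpGs in no match overlapped those of both YY1 motif CpGs. In the second stretch the hexamer CpG at 6682173 retained 91.3% (74.0 to 113), the YY1 motif CpG at 6682201 79.7% and the CCGCCC CpG at 6682239 34.0%. The other 5 CpGs of this stretch lay in no match, and those at 6682171, 6682182, 6682184, 6682208 and 6682228 retained 89.8, 91.8, 88.3, 81.1 and 68.8%. The CpG at 6682228 lies in the shorter core CGCCAT, without the rest of the motif searched. So does the CpG at 6680380, elsewhere in intron 1, which retained 84.1% (72.7 to 97.3). Depth in this stretch was 110 to 154 reads per CpG at day 0, and the intervals of the hexamer and the YY1 motif overlapped.

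Over the whole capture table the same strings were followed at CpGs with 30 to 60% methylation at day 0. The 282 such CpGs in CGCCATNTT retained a median of 19.2%, against 27.0% for the CpGs that lacked it. The 2258 in TGCCGC retained a median of 29.5%, against 27.0% without it, and 54 of them retained 80% or more. The 5985 in CCGCCC retained a median of 19.0%, against 27.2%. The Peg3 CpGs belong to these sets, and in each the Peg3 median was more than 30 points above that of the table. The locus was chosen for its slow loss of methylation, so a gap in this direction follows from the choice. It was also present outside the strings. Promoter cluster CpGs in none of the strings retained a median of 79.9%, against 27.2% for such CpGs of the table. Nothing about the strings is therefore read from the gap. In WT cells the CpGs of the table in CGCCATNTT had a median of 33.7%, against 18.5% without it, those in CCGCCC 26.6% against 18.3%, and those in TGCCGC 12.4% against 18.6%.

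WT cells, which the choice of the locus did not use, had lower levels than TTKO cells at most CpGs of the locus. This comparison shares the TTKO day 0 column with the time course. In the promoter cluster the WT level of pooled reads was 37.8%, with a median of 37.2% over CpGs (23.5 to 53.0%), and 114 of 122 CpGs were lower in WT and 8 higher. This direction was common in the capture. Of the 188373 captured CpGs with 40 to 60% at day 0, 173749 were lower in WT and 14357 higher. Of all 2177608 captured CpGs, 1684280 were lower and 430230 higher. The median difference in the promoter cluster, WT minus TTKO, was -7.70 percentage points, and over the captured CpGs with 40 to 60% at day 0 it was -28.0 points. Fisher's exact test, with p-values adjusted over all captured CpGs by the Benjamini-Hochberg method, called 53 of the 137 members lower in WT, beside 44.7% of all captured CpGs. It called 41 of 122 in the promoter cluster (33.6%), 12 of 12 in the upstream cluster and 0 of 3 in the distal cluster. No member was called higher, beside 0.907% of all captured CpGs, and 1 member was higher at an unadjusted p under 0.05. With the over-dispersion of 0.0055, 15 members were called lower, beside 34.1% of all captured CpGs, and none higher, beside 0.227%. The test compares pooled reads of 2 columns and not the lines, and members called lower had a median of 555 reads at day 0, those not called 257.5.

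**Figure D4:**
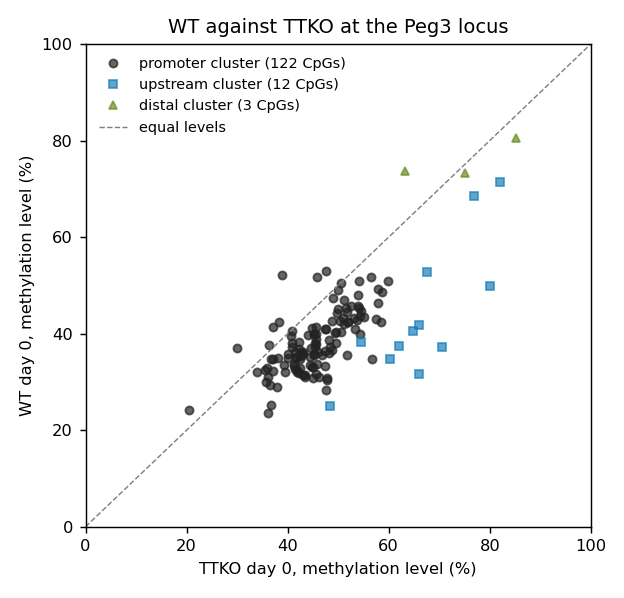
Methylation level (%) of each captured CpG of the Peg3 locus in WT cells against TTKO cells at day 0, by cluster, with the line of equal levels dashed. In the promoter cluster 114 of 122 CpGs lay below the line, and the 12 CpGs of the upstream cluster lay below it as well. Of the 188373 captured CpGs with 40 to 60% at day 0, which are not drawn, 173749 were lower in WT.

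Inside the promoter cluster the largest difference was at its gene-side end, where the CpG at 6679787 had 56.7% in TTKO (interval 52.0 to 61.2) and 34.7% in WT (29.7 to 40.1, Fisher's exact test, adjusted p = 1.26e-08). In exon 1, 4 of 15 CpGs were called, all in its downstream part. The CpG at 6682973 had 47.8% in TTKO and 30.3% in WT (adjusted p = 7.23e-05, exact test), and that at 6683126, nearest to the 5′ end, 33.9% and 32.0%, a difference within the counting intervals. Of the CpGs in CGCCATNTT, 3 of 9 were called lower in WT, close to the 33.6% of the promoter cluster, and their WT levels ranged from 23.5 to 53.0% (median 35.5%). Of those in TGCCGC, 1 of 6 was called and of those in CCGCCC 2 of 5, counts too small to set against the cluster or the 44.7% of the table. In TGCCGC, WT levels ranged from 38.7 to 50.9% (median 42.3%). The largest difference in the other direction was at 6681356, with 38.9% in TTKO (126 reads) and 52.1% in WT (121 reads), which was not called (adjusted p = 0.0863, exact test). Neighbouring CpGs at 6681415, 6681457 and 6681515 were 4.3, 5.9 and 4.2 points higher in WT, and none of them was called either.

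The upstream cluster was more methylated than the promoter cluster and differed more between the lines. At day 0 its CpGs were at 48.3 to 82.0% in TTKO cells (median 65.9%) and at 25.1 to 71.4% in WT cells (median 39.4%), with a median difference, WT minus TTKO, of -24.2 points. Over the captured CpGs with 40 to 60% at day 0, a lower range of levels, the median difference was -28.0 points. The median depth of this cluster at day 0, 1229 reads, was the highest of the 3, although the CpG at 6684620 had only 88 reads. The widest gap was at 6684771, 1639 bases upstream of the 5′ end, with 65.9% in TTKO (interval 61.9 to 69.8) and 31.7% in WT (27.2 to 36.5, adjusted p = 3.6e-24, exact test). The next CpG, 2 bases on at 6684773, had the same 65.9% in TTKO and 41.8% in WT (36.9 to 46.8). At 6685315 the levels were 80.1% (78.4 to 81.7) and 49.8% (47.4 to 52.2), and at 6685399 70.6% (68.4 to 72.8) and 37.2% (34.5 to 40.1). Farther out, at 6685550 and 6685665, the lines were 8.2 and 10.6 points apart, the smallest differences of the cluster.

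Over time the upstream cluster had pooled levels of 67.0% before transduction and 65.9, 65.1, 60.1, 58.4, 52.2 and 45.0% at the later time points. Its CpGs retained 43.5 to 83.1% (median 70.7%). The lowest CpG at day 0, at 6685083, was also the one that retained least, with 48.3% (2025 reads) at day 0 and 21.0% (1899 reads) at day 29, or 43.5% (39.4 to 48.0). At 6685034, 49 bases away, 62.0% at day 0 became 51.5% at day 29, or 83.1% retained (77.5 to 89.0), the largest share of the cluster. The intervals of these neighbours did not overlap, but they were picked as the extremes of the cluster, so this is no test. The highest CpG, at 6685665, went from 82.0% to 61.4%. The contexts of the CpGs with the widest gap between lines, the least and the most methylation are shown, each as 26 bases of the plus strand with the CpG in capitals.
Upstream, CpG at 6684771: aacaaggcatacCGcgcaagtgaatg
Upstream, CpG at 6685083: catgcttactatCGctccaaactgta
Upstream, CpG at 6685665: ttgcctagcatgCGtgagacactggg

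The distal cluster, at least 5177 bases upstream, held 3 CpGs with few reads. The highest, at 6688309, had 85.2% at day 0 (210 reads), 79.5% at day 29 (176 reads) and 80.5% in WT (154 reads). At 6688324, 15 bases on, 75.0% became 43.4% at day 29, with 73.3% in WT. The lowest at day 0, at 6688451, had 63.2% (68 reads), 40.4% at day 29 (52 reads) and 73.6% in WT (53 reads). The nearest captured CpGs outside the window were at 6649591, with 74.8% at day 0, 43.0% at day 29 and 48.2% in WT, and at 6712730, with 63.2, 30.4 and 8.6%.

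Nnat, another gene that is expressed from the paternal copy and methylated on the maternal one, had 91 captured CpGs within 1000 bases of its 5′ end (chr2:157385814-157388258, plus strand). In TTKO cells their median level was 44.4% before transduction and 30.8% at the last time point, and in WT cells it was 39.4%, and the median retained share was 68.8% (45.6 to 93.4%). The difference from the Peg3 promoter cluster was not tested, as CpGs of a locus are not replicates. No captured CpG lay within this distance of the outermost 5′ ends that GENCODE M1 gives for Mest and Snrpn, so these were not compared. Other transcript starts of both genes were not examined.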

How the data were processed

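The study measured DNA methylation in 102 samples of mouse embryonic stem cells, of which the 24 capture samples in 8 groups were used here. The authors aligned bisulfite reads to mm9 and deposited, per CpG and column, the coverage as read counts and the methylation level as a percentage, with the 3 replicates of a group joined and CpGs under 50 reads left out. Methylated reads were the product of both, rounded. The amplicon regions, deposited by the authors as positions, were only checked for overlap with the window. The authors' inferred rates (kMe, kDe), confidence classes and TET activity were not used. There were 0 columns of unmapped samples.

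Members and motifs were chosen with earlier results of these data known. Two-sided Fisher's exact tests on the reads of joined columns were run over all 2177608 CpGs and adjusted by the Benjamini-Hochberg method, with 0.05 as the threshold. Rates were fitted by grid inference (80 rates per axis up to 2 per day, Dnmt3 loss at 0.5 per day, 8% of alleles unexcised, conversion error 0.0025, binomial likelihood, 95% credible ranges). Intervals of retained shares are those of a ratio of proportions on the log scale. CpGs were placed on NCBIM37 (mm9), where 100% of the table's positions were CG, and sequences were read from it. Tests and fits were tested on simulated data. By rule, the text names the extremes of level, retained share, rate and difference in the promoter cluster, those in a TGCCGC or CGCCATNTT match, and the highest and lowest of the other clusters. Further CpGs, such as neighbours of these and those in CCGCCC, were picked after their values were seen. Python 3.11.15 was used with numpy 2.4.6, scipy 1.17.1, pandas 2.3.3, numba 0.67.0 and matplotlib 3.10.9. Alternatives changed the coverage minimum, the minimum difference, the variance, the span of the cluster and the settings of the fit.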

Additional observations from a re-analysis of the deposited data

How the results depend on the processing

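Of the alternatives, the over-dispersion of 0.0055, taken from the amplicon assay, moved the counts of calls most, to 15 members lower in WT (from 53) and 40 lower at day 29 (from 93), where the shares of all captured CpGs went from 44.7 to 34.1% and from 59.3 to 53.0%, the day 29 comparison being a contrast that chose the locus and from which nothing is read. A minimum of 100 or 150 reads in every column, or a difference of at least 10 points, left 69 to 84 and 38 to 53, and no alternative called a member higher. The pooled level of the promoter cluster was 46.9% at day 0 and 35.7% at day 29 with at least 150 reads, and 45.7% and 34.6% as an unweighted mean over CpGs. With clusters split at gaps over 200 bases (62 CpGs), it was 37.2% at day 29 and 38.5% in WT, and within 1000 bases of the 5′ end (74 CpGs) 37.3% and 39.0%. The median retained share was 81.3% and 81.1% with these spans and 76.4% as a ratio of pooled levels. The beta-binomial likelihood moved the median log2 k_de to -5.19, over the 9 CpGs still low noise in place of 48. The median retained shares of CpGs in TGCCGC and CGCCATNTT were 82.8% (4 CpGs) and 61.0% (5 CpGs) with at least 150 reads, a setting added after seeing the data, and that of CpGs in CCGCCC was 71.3% (2 CpGs). No paired analysis was possible because the replicates are joined in each column, and leaving out a replicate could not be run for the same reason.

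Depth limited single CpGs, and differences of a few points between neighbours were not detectable. The reads do not tell the parental copies apart. Motifs are matches of letters, and binding was not measured.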
